A study of Mus musculus with 18 samples.

Results

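The molecular chaperones measured here were the 83 genes, of 30848 gene rows in the deposited expression matrix, whose symbols begin with Hspa, Hspb, Hspd, Hspe, Hsph, Hsp90, Dnaja, Dnajb, Dnajc, Pdia or Cct followed by a digit, or are Calr, Canx, Herpud1, Bag3 or Hyou1. Of these 44 belong to the cytosol and nucleus, 8 are subunits of the cytosolic chaperonin CCT, 10 act in mitochondria and 21 in the endoplasmic reticulum (ER). Their transcripts were followed by Illumina bead arrays in AB2.2 and PL2F8, both mouse embryonic stem (ES) cell lines, on days 0, 2, 4, 6 and 8 of culture without LIF, a cytokine on which the undifferentiated state of such cells depends. Groups are defined by line and day alone. No allele or other agent is given in the labels, and what distinguishes PL2F8 from AB2.2 is not given in the sources used here. There were 18 arrays: 2 per line on days 0 to 6 and 1 per line on day 8. Nothing in the labels ties replicate arrays to independent cultures, so p-values measure only the spread between these arrays, which may be technical.

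Chaperones hold nascent or unfolded polypeptides and release them in cycles driven by ATP. HSP70 proteins do so with J proteins (Dnaj), which deliver clients and stimulate hydrolysis, and with nucleotide exchange factors. HSP90 proteins complete the folding of selected clients, small heat shock proteins (Hspb) hold unfolded clients without ATP, and CCT encloses actin and tubulin in a ring. In the cytosol many of these genes answer to the heat shock factor HSF1, and in the ER the unfolded protein response raises BiP, GRP94, protein disulphide isomerases and their partners when secretory load grows. Undifferentiated ES cells are known for abundant cytosolic and mitochondrial chaperones, and visceral endoderm, one of the cell types they can form, is a secretory epithelium.

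The promoters of several ER members carry the ER stress response element, a composite site for NF-Y and ATF6 or XBP1, and these stretches are shown beside the changes of these ER genes given below. The letters CCAAT, any 9 bases and CCACG were searched in this order on both strands in the 250 bases before the start of each RefSeq gene (GRCm38.p6). Of the 83 members 68 matched a gene. The motif was found in 6 members and in 37 of 32851 promoters in all (0.113%). The matched CCAAT and CCACG letters, or their reverse complements ATTGG and CGTGG, are in capitals and each stretch is written along the gene's strand.
Hspa5 (BiP), chr2:34772003-34772065, plus strand: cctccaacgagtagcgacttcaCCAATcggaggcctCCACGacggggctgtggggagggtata
Hsp90b1 (GRP94), chr10:86705616-86705678, minus strand: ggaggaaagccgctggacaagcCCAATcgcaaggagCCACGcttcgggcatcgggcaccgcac
Hsp90b1, second match, chr10:86705511-86705573, minus strand: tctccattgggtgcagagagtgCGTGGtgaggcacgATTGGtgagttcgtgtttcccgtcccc
Calr (calreticulin), chr8:84847053-84847115, minus strand: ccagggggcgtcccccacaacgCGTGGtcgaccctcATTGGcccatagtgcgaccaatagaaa
Pdia6, chr12:17266469-17266531, plus strand: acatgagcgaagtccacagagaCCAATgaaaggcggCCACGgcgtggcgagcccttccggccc
Dnajc3 (P58IPK), chr14:118937805-118937867, plus strand: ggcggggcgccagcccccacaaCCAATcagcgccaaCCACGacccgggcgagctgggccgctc
Canx (calnexin), chr11:50325778-50325840, minus strand: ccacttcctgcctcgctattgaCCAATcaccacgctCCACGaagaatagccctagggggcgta

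The heat shock element, inverted repeats of GAA to which HSF1 binds, was searched as GAA, TTC and GAA, each 2 bases apart, on both strands in the same windows. It was found in 3 members, Hspd1, Hspe1 and Dnajb6, and in 153 of the 32851 promoters (0.466%). Hspd1 and Hspe1 encode the mitochondrial partners HSP60 and HSP10, lie head to head, and share the stretch shown first, which is written along the Hspe1 strand and holds a further match that overlaps the one in capitals. A match in these windows is a description of letters and says nothing on binding, and the letters' absence from other members says nothing on the factor.
Hspe1 and Hspd1, chr1:55088037-55088093, plus strand: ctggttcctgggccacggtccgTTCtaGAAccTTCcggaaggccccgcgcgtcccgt
Dnajb6, chr5:29735830-29735886, plus strand: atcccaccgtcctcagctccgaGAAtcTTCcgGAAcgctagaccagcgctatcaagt

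Arrays had mean signals of 283.6 to 492.7 and detected 41.9% to 45% of probes. The PL2F8 arrays of day 6 were dimmer, at 137.4 and 134.8 with 40% and 37.8% detected, and that of day 8 dimmer still, at 60.1 with 20.9%. Below, the 2 arrays of a line and day are written with a slash. Values are log2 of background-corrected, quantile-normalized signal. Changes are differences of these values, with the standard error of a limma model over all 18 arrays after ±. A member was called when its p adjusted over 16982 genes was below 0.05. Normalizing to each array's median instead moved the median of all genes by -0.35 in both lines and by -1.05 in PL2F8 at day 6, so directions that turn under it are marked. Of 8 markers of undifferentiated ES cells 7 were lower at day 6 in both lines together and Dppa3 was higher, and all 8 were detected on every day 0 array. Their summed signal went from 22726 and 23001 to 5358.5 and 5574 in AB2.2 and from 27299 and 27348 to 9812.8 and 9739.9 in PL2F8. The summed signal of 10 visceral endoderm markers went from 1256.7 and 1255.7 at day 0 to 30757 and 30624 at day 6 in AB2.2, and from 477.94 and 458.94 to 1523.7 and 1910.2 in PL2F8. All 10 were higher at day 6 in AB2.2 and 6 of 10 in PL2F8.

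Of the 83 members, 72 were detected on at least 2 arrays and were tested, and 41 were detected on all 18. The 11 others were Canx, the ER lectin calnexin, Dnajb7, Dnajb8, Dnajb14, Dnajc5b, Dnajc9, Hspa13, Hspa14, Hspa1l, Hspb7 and Hspb9. Over the lines combined, 15 were higher and 22 lower at day 2, against 22.3% higher and 22.8% lower among all genes. At day 4, 19 were higher and 23 lower, against 32.1% and 27.9%. At day 6, 22 were higher and 25 lower, against 34.2% and 33.7%, or 8 higher and 50 lower with median scaling. Here and below, shares of all genes are those with quantile normalization. No such share is given for median scaling, where the median of all genes also moved. Counts with median scaling therefore do not show whether the chaperones differ from all genes. The shares of members were 20.8% and 30.6% at day 2, the latter above that of all genes, and 30.6% and 34.7% at day 6, near those of all genes, and the members differed among themselves by compartment, as the plot of changes by compartment shows. In AB2.2 at day 6, where no called direction turned with median scaling, 20 of 72 were higher and 26 lower, against 28.2% and 26.3%, and at day 8 the counts were 14 and 21, against 23.9% and 24%. Fewer members were called lower in AB2.2 at day 6 with median scaling, by the count given in the closing section. In AB2.2 alone 11 were higher and 16 lower at day 2 (against 17.5% and 16.8%) and 19 and 18 at day 4 (27.4% and 23.3%). In PL2F8 alone 10 were higher and 16 lower at day 2 (17.6% and 18.5%) and 11 and 19 at day 4 (26.4% and 24.4%). In PL2F8 at day 6, 20 were higher and 29 lower, against 31.4% and 34.7%, or 2 and 61 with median scaling. All changes from day 0 within a line share its day 0 arrays, and in these bulk samples fewer cells of a type and less RNA per cell cannot be told apart.

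**Figure D1:**
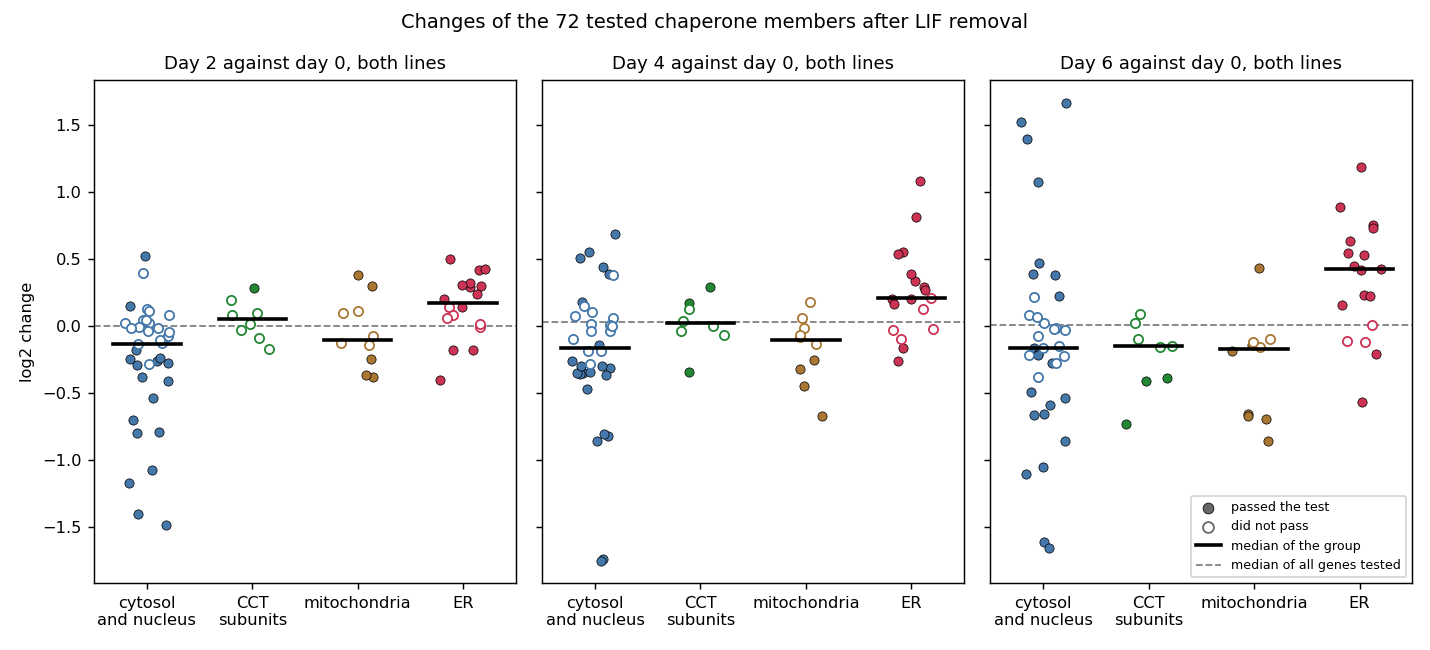
Log2 change from day 0 (vertical axis) of each tested chaperone in both lines together, by compartment, at days 2, 4 and 6; filled points passed the test and open points did not, solid bars are group medians and the dashed line is the median of all genes. Among 18 tested ER members 13 were higher and 2 lower at day 6, or 4 higher and 10 lower with median scaling, and the median of the 36 cytosolic members lay at -0.13, -0.16 and -0.16.

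Small heat shock proteins had 3 of the 4 lowest called changes at day 2. Hspb1 (HSP27), which holds unfolded clients and binds actin, stood in AB2.2 at 11.69/11.55 on day 0, 10.01/10.25 on day 2, 9.49/9.71 on day 4, 9.87/10.22 on day 6 and 10.44 on day 8. In PL2F8 it stood at 11.32/11.53, 10.47/10.68, 10.08/9.82 and 11.04/10.77 on days 0, 2, 4 and 6. Every later array of either line lay below its line's day 0 arrays, lowest at day 4. In both lines together Hspb1 fell by 1.17 ± 0.11 at day 2 (limma adjusted p = 2.2e-06), by 1.75 ± 0.11 at day 4 (limma adjusted p = 2.6e-08) and by 1.05 ± 0.11 at day 6 (limma adjusted p = 2.1e-06). At day 6 the change in AB2.2 alone was -1.58 ± 0.15 (limma adjusted p = 2.0e-06). The PL2F8 call at day 6 was lost without PL2F8 day 0 replicate 2 or day 6 replicate 2 (-0.41 to -0.38).

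Hspb6 (HSP20), a small heat shock protein of muscle, also stayed low. Its arrays stood at 9.18/9.35 on day 0 and 8.29/8.03 on day 2 in AB2.2, and at 8.81/8.76 and 7.71/7.79 in PL2F8. The groups did not overlap, and the fall was 1.07 ± 0.07 at day 2, 0.86 ± 0.07 at day 4 and 0.86 ± 0.07 at day 6 in both lines (limma adjusted p of 5.7e-08, 2.0e-07 and 1.5e-07). Hspb8 (HSP22), the partner of Bag3 in selective autophagy, dipped and came back. In AB2.2 it stood at 9.57/9.60 on day 0, 8.12/8.07 on day 2, 9.33/9.40 on day 4 and 10.15/10.22 on day 6, and in PL2F8 at 10.09/9.90, 8.47/8.57, 9.62/9.63 and 10.21/10.15. Day 2 was the low point in each line, -1.48 ± 0.06 against day 0 (limma adjusted p = 7.7e-10). At day 6 AB2.2 lay 0.60 ± 0.08 above day 0 (limma adjusted p = 3.6e-05), whereas PL2F8 differed by 0.18 ± 0.08 (limma adjusted p = 0.060).

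Hspb2, known from muscle as a binding partner of the myotonic dystrophy kinase, went the other way after day 2. Its AB2.2 arrays read 6.21/6.17 on day 0, 5.60/5.30 on day 2, 6.35/6.24 on day 4 and 7.88/7.99 on day 6, and its PL2F8 arrays 5.78/5.25, 5.07/5.28, 6.17/6.19 and 7.11/6.55. All 4 day 6 arrays exceeded all 4 day 0 arrays. The rise at day 6 was 1.74 ± 0.19 in AB2.2 (limma adjusted p = 4.8e-06) and 1.31 ± 0.19 in PL2F8 (limma adjusted p = 4.2e-05), the latter at -0.01 with median scaling. Hspb3 was detected on 2 arrays: 1 AB2.2 array of day 0 at 4.89 and the single, dim PL2F8 array of day 8 at 7.66. The lowest detected signal of that PL2F8 array was 6.89, against 4.72 and 4.71 on the PL2F8 arrays of day 0, so no fold is given. Of 6 cardiac muscle markers 5 had a row and 3 were tested, with Myh7 and Nkx2-5 not passing the detection filter, and their summed signal ranged from 101.81 to 163.94 on the arrays of days 0 and 2 and from 112.19 to 282.52 on those of days 4 and 6. Their part in the Hspb results was not tested.

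Among the HSP70 genes the stress-inducible Hspa1a had the highest change at day 6. Hspa1a read 4.97/4.76, 4.52/4.58 and 5.98/6.00 in AB2.2 at days 0, 4 and 6. In PL2F8 it read 4.95/5.09, 5.03/4.90 and 7.16/7.30 on the same days, which set the 4 day 6 arrays above all other arrays. The AB2.2 arrays of day 4 and 1 of day 0 were not above background. The rise at day 6 was 1.13 ± 0.14 in AB2.2 (limma adjusted p = 1.9e-05) and 2.21 ± 0.14 in PL2F8 (limma adjusted p = 2.6e-08), and at day 8 in AB2.2 the change was 0.01 ± 0.17 (limma adjusted p = 0.96). Its 2 other probes, detected on 2 and 3 arrays, each gave 0.58 at day 6 in both lines. Hspa1b, a near-identical copy whose signal may be shared with it, read 5.05/4.92 at day 0 and 5.64/5.88 at day 6 in PL2F8. It changed by 0.77 ± 0.17 there (limma adjusted p = 0.0011; -0.026 with median scaling) and by -0.01 ± 0.17 in AB2.2 (limma adjusted p = 0.97).

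Hspa8 (HSC70) lay between 13.24 and 13.84 on all 18 arrays. It changed by -0.12 ± 0.09 in AB2.2 at day 6 (limma adjusted p = 0.26), while 2 other Hspa8 probes, also detected on all 18 arrays, gave 0.24 (limma adjusted p = 0.0269) and -1.30 (limma adjusted p = 7.65e-08), so its probes disagree. Hspa4, an HSP110 relative that exchanges nucleotide on HSP70, fell by 0.59 ± 0.09 at day 6 in both lines (limma adjusted p = 5.7e-05). Hsph1, the principal HSP110 gene, is not among the 83 because its row carries the older name Hsp105, and it changed by 0.27 ± 0.07 at day 2 (limma adjusted p = 0.0066) and -0.55 at day 6 (limma adjusted p = 1.1e-05). Hspa2, an HSP70 best known from male germ cells, read 8.30/8.24, 7.65/7.51, 7.50/7.55 and 7.56/7.65 in AB2.2 at days 0 to 6. The PL2F8 arrays read 8.28/8.56, 7.53/7.51, 8.42/8.47 and 9.19/9.28 on the same days. It fell in both lines at day 2, by 0.79 ± 0.07 (limma adjusted p = 9.0e-07), and stayed low in AB2.2, whereas the PL2F8 arrays of day 4 were back among their day 0 values. Hspa12b, a distant relative known from endothelium, was detected on AB2.2 arrays at 5.23/5.27 on day 6 and 6.05 on day 8, the latter 1.33 ± 0.17 over day 0 (limma adjusted p = 3.4e-05), where only 1 of 2 arrays detected it.

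**Figure D2:**
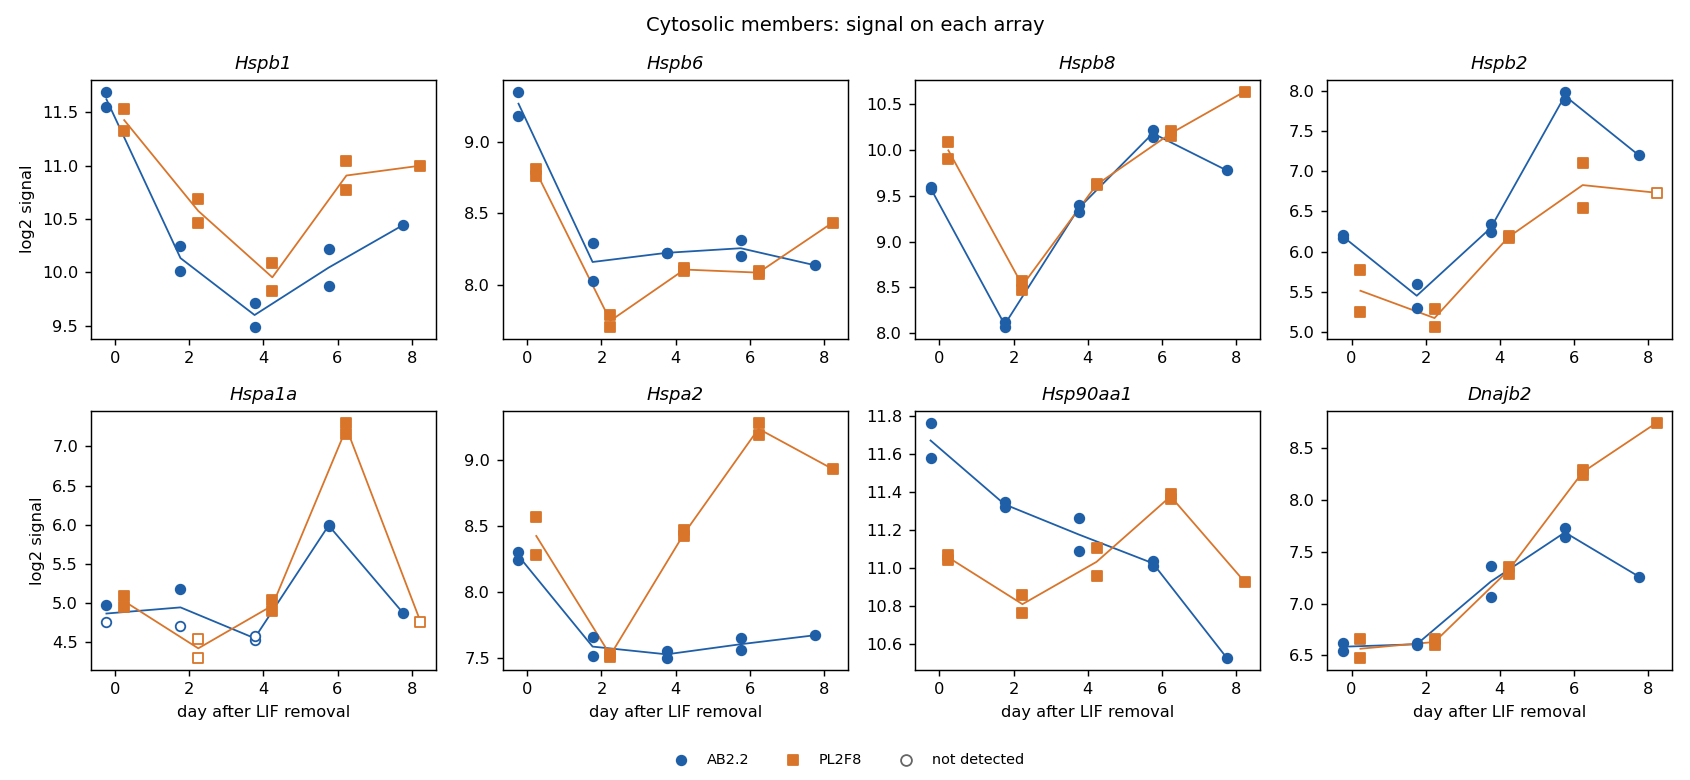
Log2 normalized signal (vertical axis) of 8 cytosolic chaperones on each array by day, for AB2.2 and PL2F8; open symbols were not detected above background. Hspb8 is lowest at day 2 in both lines, and Hspa2 and Hsp90aa1 part between the lines by day 6, where median scaling turns the sign of the PL2F8 changes of both.

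The HSP90 genes of the cytosol differed in course. The inducible Hsp90aa1 read 11.77/11.58 at day 0, 11.09/11.26 at day 4, 11.01/11.04 at day 6 and 10.53 at day 8 in AB2.2, a fall of 0.64 ± 0.09 at day 6 (limma adjusted p = 4.5e-05) and of 1.14 ± 0.11 at day 8 (limma adjusted p = 2.3e-06). PL2F8 values were 11.07/11.04 at day 0 and 11.39/11.36 at day 6, 0.32 ± 0.09 (limma adjusted p = 0.0063) or -1.68 with median scaling. The constitutive Hsp90ab1 lay between 13.41 and 13.99 on all arrays. At day 6 it differed by 0.16 ± 0.10 in AB2.2 (limma adjusted p = 0.17) and was lower in PL2F8 by -0.31 ± 0.10 (limma adjusted p = 0.013), a call lost without PL2F8 day 0 replicate 2 (-0.23). Over both lines together it differed by -0.07 ± 0.07 (limma adjusted p = 0.37), while its 2 other probes gave -0.43 and -0.41.

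Of the cytosolic J proteins, Dnajb2, which steers ubiquitinated clients to the proteasome and is known from neurons, read 6.55/6.62 at day 0, 7.36/7.06 at day 4 and 7.65/7.73 at day 6 in AB2.2. In PL2F8 it read 6.66/6.48, 7.29/7.36 and 8.24/8.29 on the same days. Day 4 arrays lay between those of day 0 and day 6 in each line. The rise at day 6 was 1.10 ± 0.10 in AB2.2 (limma adjusted p = 1.0e-06) and 1.70 ± 0.10 in PL2F8 (limma adjusted p = 1.2e-08; -0.079 with median scaling). Dnajc5, the cysteine string protein of secretory vesicles, rose over both lines together by 0.56 ± 0.05 at day 4 (limma adjusted p = 6.3e-07) and 1.08 ± 0.05 at day 6 (limma adjusted p = 8.6e-10). In PL2F8 alone its change at day 6 was 1.13, or -0.87 with median scaling. Dnajc27 was the highest called member at day 2, with 0.53 ± 0.06 (limma adjusted p = 1.2e-05).

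Other J proteins fell with no overlap between days. Dnajb13, of the sperm and cilium axoneme, read 6.67/6.54 at day 0 and 5.20/5.45 at day 2 in AB2.2. The PL2F8 arrays gave 7.24/7.21 and 5.63/5.77 on the same days. Dnajb13 fell in both lines by 1.40 ± 0.13, 1.74 ± 0.13 and 1.61 ± 0.13 at days 2, 4 and 6 (limma adjusted p = 2.1e-07 at day 6). Dnajc6 (auxilin), which uncoats clathrin vesicles with HSC70, read 8.94/9.10 and 7.68/7.72 in AB2.2 and 9.60/9.83 and 7.85/7.59 in PL2F8 at days 0 and 6, a fall of 1.66 ± 0.07 (limma adjusted p = 6.3e-10). Dnajc12, which in human cells assists aromatic amino acid hydroxylases, fell by 1.10 ± 0.07 (limma adjusted p = 2.7e-08). The central J protein Dnajb1 (HSP40) and the exchange factor Bag3 went opposite ways in the lines at day 6. Dnajb1 was higher in AB2.2 by 0.27 ± 0.09 (limma adjusted p = 0.016), a call lost without AB2.2 day 0 replicate 1 or either AB2.2 day 6 replicate (0.20 to 0.28), and lower in PL2F8 by -0.30 ± 0.09 (limma adjusted p = 0.0074). Bag3 was higher in AB2.2 by 0.39 ± 0.10 (limma adjusted p = 0.0059) and lower in PL2F8 by -0.34 ± 0.10 (limma adjusted p = 0.0098), the latter lost without PL2F8 day 0 replicate 1 or day 6 replicate 2 (-0.28 to -0.24). The difference between lines was -0.58 ± 0.12 for Dnajb1 (limma adjusted p = 0.0014) and -0.73 ± 0.14 for Bag3 (limma adjusted p = 0.00091), and the changes over both lines together were -0.01 ± 0.06 (limma adjusted p = 0.85) and 0.02 ± 0.07 (limma adjusted p = 0.80). Of all 36 tested cytosolic members 2 were higher and 16 lower at day 2, 6 and 16 at day 4, and 8 and 14 at day 6, with medians of -0.13, -0.16 and -0.16. With median scaling the counts were 2 and 18, 6 and 19, and 4 and 23, and in AB2.2 at day 6 they went from 9 higher and 15 lower to 11 and 9. With quantile normalization 5.56%, 16.7% and 22.2% were higher at days 2, 4 and 6, against 22.3%, 32.1% and 34.2% of all genes. The shares lower were 44.4%, 44.4% and 38.9%, against 22.8%, 27.9% and 33.7%.

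The 8 CCT genes, all tested, moved little before day 6. At day 2, 1 was higher and 0 lower, at day 4, 2 were higher and 1 lower, and at day 6, 0 were higher and 3 lower, or 8 lower with median scaling. Among all genes 22.3% were higher and 22.8% lower at day 2, 32.1% and 27.9% at day 4, and 34.2% and 33.7% at day 6. The 3 lower at day 6 were 37.5% of the 8, near the share of all genes. The CCT subunit gene Tcp1 is not among the 8 because its symbol does not begin with Cct. It was read with the list of HSF1 and the cytosolic co-chaperones. Cct6a read 12.78/12.83 and 12.53/12.48 in AB2.2 and 12.64/12.86 and 11.60/11.59 in PL2F8 at days 0 and 6, and fell by 0.73 ± 0.07 in both lines (limma adjusted p = 8.1e-07). Cct5 fell by 0.39 ± 0.06 (limma adjusted p = 6.4e-05), from 7.09/7.16 to 6.67/6.62 in AB2.2 and from 6.83/6.90 to 6.55/6.59 in PL2F8. Cct3 rose by 0.29 ± 0.06 at day 2 (limma adjusted p = 0.0011) and fell by 0.41 ± 0.06 at day 6 (limma adjusted p = 2.6e-05), with the AB2.2 arrays of day 6 at 12.02/12.02 beside 12.02/12.15 on day 0 and those of PL2F8 at 11.29/11.32 beside 12.00/12.13. The remaining subunits differed less: at day 6 Cct2 by -0.15 ± 0.09, Cct4 by 0.03 ± 0.06, Cct7 by -0.15 ± 0.09 and Cct8 by -0.10 ± 0.09, with limma adjusted p of 0.16, 0.71, 0.15 and 0.34. Cct6b, a paralogue of Cct6a known from testis, read 5.90/6.07 and 5.26/5.70 in AB2.2 and 5.67/5.69 and 6.38/6.36 in PL2F8, so day 6 was lower in AB2.2 and higher in PL2F8, the latter at -0.53 with median scaling.

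In mitochondria the chaperonin genes differed in timing: Hspd1 was lower from day 4 in both lines and Hspe1 at days 6 and 8 in AB2.2. Hspd1 (HSP60) read 12.32/12.29 on day 0, 12.46/12.37 on day 2, 11.85/12.08 on day 4 and 11.89/11.91 on day 6 in AB2.2. In PL2F8 it stood at 12.31/12.50, 12.53/12.47, 11.86/11.86 and 11.49/11.47 on the same days. Days 0 and 2 overlapped in PL2F8 and days 4 and 6 lay below both in each line. The changes were 0.10 ± 0.06 at day 2 (limma adjusted p = 0.23), -0.44 ± 0.06 at day 4 (limma adjusted p = 5.7e-05) and -0.67 ± 0.06 at day 6 (limma adjusted p = 9.8e-07), and a second probe gave -1.94 at day 6. Hspe1 (HSP10), its lid, shares the promoter stretch above. It read 10.94/10.97, 11.21/11.12 and 10.58/10.62 at days 0, 2 and 6 and 10.25 at day 8 in AB2.2, and 10.98/10.98, 11.35/11.41 and 10.99/11.21 at days 0, 2 and 6 in PL2F8. It rose by 0.30 ± 0.06 at day 2 in both lines (limma adjusted p = 0.0011) and fell in AB2.2 by 0.36 ± 0.08 at day 6 (limma adjusted p = 0.0031) and 0.70 ± 0.10 at day 8 (limma adjusted p = 1.0e-04), while PL2F8 at day 6 differed by 0.12 ± 0.08 (limma adjusted p = 0.24).

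Hspa9 (mortalin), the mitochondrial HSP70 that pulls in precursor proteins, fell over both lines together by 0.25 ± 0.05 at day 2 (limma adjusted p = 0.0023) and 0.32 ± 0.05 at day 4 (limma adjusted p = 0.00022). In AB2.2 alone Hspa9 changed by -0.33 ± 0.08 (limma adjusted p = 0.0044) and -0.54 ± 0.08 (limma adjusted p = 6.6e-05) on these days. It was not called in PL2F8, at -0.16 ± 0.08 (limma adjusted p = 0.13) and -0.10 ± 0.08 (limma adjusted p = 0.33). Its J partner Dnaja3 (TID1) was lower in AB2.2 by -0.30 ± 0.08 at day 6 (limma adjusted p = 0.0086), a call lost without AB2.2 day 0 replicate 2 or day 6 replicate 1 (-0.25 to -0.24), and by -0.47 ± 0.10 at day 8 (limma adjusted p = 0.0022). In PL2F8 at day 6 Dnaja3 was not called (0.12 ± 0.08, limma adjusted p = 0.24, or -1.91 with median scaling), nor over both lines together (-0.09 ± 0.06, limma adjusted p = 0.19). Dnajc15, a J protein of the inner membrane, read 10.35/10.50 and 10.14/9.89 in AB2.2 and 10.50/10.37 and 9.11/9.16 in PL2F8 at days 0 and 6, a fall of 0.86 ± 0.08 (limma adjusted p = 7.2e-07). Dnajc30, a J protein bound to ATP synthase, read 9.14/9.18, 8.67/8.61 and 8.83/8.79 in AB2.2 and 8.75/8.71, 8.48/8.51 and 7.76/7.62 in PL2F8 at days 0, 2 and 6. No later array reached its line's day 0 values, and the fall was 0.38 ± 0.05 at day 2 (limma adjusted p = 7.0e-05) and 0.70 ± 0.05 at day 6 (limma adjusted p = 9.9e-08). In AB2.2 0 of 10 mitochondrial members were higher and 8 lower at day 6, against 28.2% and 26.3% of all genes, or 2 lower with median scaling. Their median was -0.35 at day 6, against 0.005 over all genes. On the single AB2.2 array of day 8 it was -0.509, against -0.021. In both lines together 1 of the 10 was higher and 6 lower at day 6, against 34.2% and 33.7%, with a median of -0.17. In PL2F8 alone, on dim arrays, 1 was higher and 4 lower, against 31.4% and 34.7%, with a median of 0.011. The day 6 change differed between lines in all 10, with 6 higher and 4 lower in PL2F8, against 25.8% and 29.4% of all genes.

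**Figure D3:**
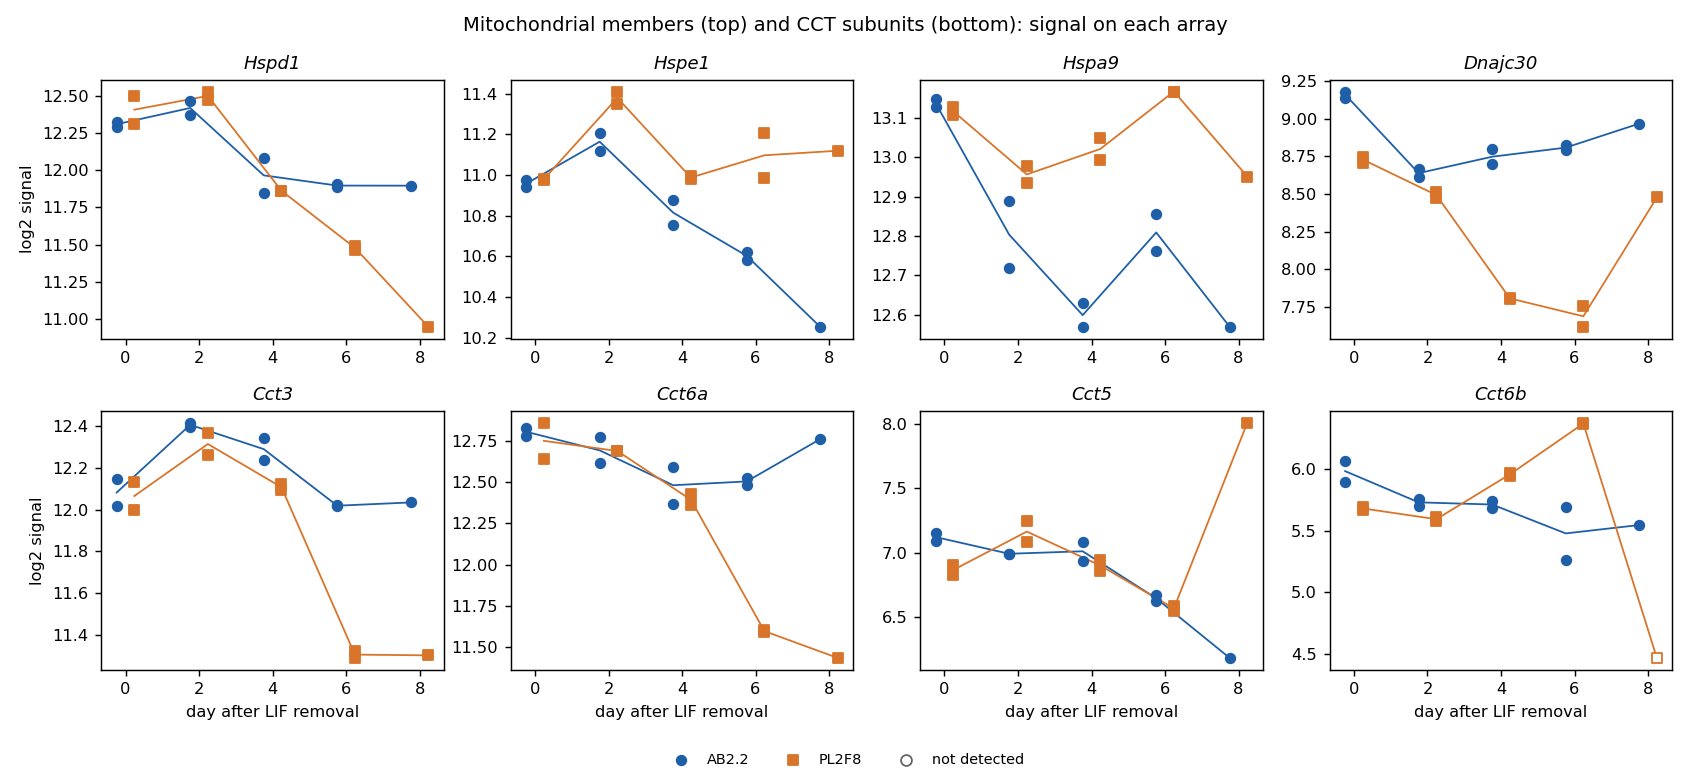
Log2 normalized signal (vertical axis) of 4 mitochondrial chaperones and 4 CCT subunits on each array by day, for AB2.2 and PL2F8; open symbols were not detected above background. Hspd1 and Dnajc30 lie below day 0 at days 4 and 6 in both lines, and Cct6b parts between the lines by day 6, where median scaling turns the sign of its PL2F8 change.

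Most called ER members were higher at days 2, 4 and 6, a direction that turned at day 6 with median scaling in PL2F8 and in both lines together. Of all genes 22.3% were higher and 22.8% lower at day 2, 32.1% and 27.9% at day 4, and 34.2% and 33.7% at day 6. In both lines together 10 of 18 tested members were higher and 3 lower at day 2, 11 and 2 at day 4, and 13 and 2 at day 6, with medians of 0.174, 0.208 and 0.425 against 0, 0.029 and 0.012 over all genes. With median scaling these counts were 5 and 3, 6 and 4, and 4 and 10, with PL2F8 at day 6 going from 10 higher and 3 lower to 1 higher and 16 lower. In AB2.2 alone 11 were higher and 0 lower at day 6, and 8 and 0 at day 8, or 15 and 0 and 12 and 0 with median scaling. On the single, dim PL2F8 array of day 8 most ER members were lower, with a median of -0.569, against -0.175 over all genes. Day 2 had 8 ER members up and 0 down in AB2.2 and day 4 had 11 and 0, against 5 and 3 on each of these days in PL2F8. In the same AB2.2 arrays the summed visceral endoderm markers stood at 3922 and 4021.3 on day 2, 12717 and 13508 on day 4 and 39463 on day 8, and in PL2F8 at 545.91 and 528.86 on day 2 and 754.88 and 758.23 on day 4. Their part in the ER changes was not tested.

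Among the ER HSP70 and HSP90 chaperones, Hyou1 (GRP170), the exchange factor of BiP, read 6.59/6.58 on day 0, 7.09/7.04 on day 2, 7.65/7.87 on day 4 and 7.60/7.64 on day 6 in AB2.2. In PL2F8 it read 6.55/6.57, 7.14/7.03, 7.59/7.52 and 7.21/7.38 on the same days. Every array of days 2 to 6 lay above all day 0 arrays. The rise was 0.50 ± 0.06 at day 2 (limma adjusted p = 3.0e-05) and 1.09 ± 0.06 at day 4 (limma adjusted p = 1.4e-08), and at day 6 it was 1.04 ± 0.09 in AB2.2 (limma adjusted p = 6.5e-07) and 0.74 ± 0.09 in PL2F8 (limma adjusted p = 9.3e-06; -0.89 with median scaling). Hsp90b1 (GRP94), whose promoter holds both ER stress element matches shown, read 11.40/11.45, 11.98/11.91, 12.29/12.33 and 12.18/12.32 in AB2.2 at days 0, 2, 4 and 6. The PL2F8 arrays were at 11.52/11.52, 11.86/11.82, 12.38/12.15 and 12.15/12.15 on the same days. Again no array of days 2 to 6 overlapped day 0, with changes of 0.42 ± 0.06 at day 2 (limma adjusted p = 9.1e-05), 0.82 ± 0.06 at day 4 (limma adjusted p = 1.1e-07) and 0.83 ± 0.08 at day 6 in AB2.2 (limma adjusted p = 3.1e-06). Hspa5 (BiP), the ER HSP70 and sensor of unfolded proteins, read 5.93/5.76, 5.57/5.69, 5.92/6.46 and 6.19/6.35 in AB2.2 and 5.81/5.70, 6.07/6.18, 5.65/5.99 and 6.52/6.33 in PL2F8. Its day 4 arrays overlapped those of day 0 and all 4 day 6 arrays lay above them. It differed by 0.08 ± 0.11 at day 2 (limma adjusted p = 0.60) and 0.21 ± 0.11 at day 4 (limma adjusted p = 0.13), and was called at day 6 in both lines together, at 0.55 ± 0.11 (limma adjusted p = 0.00086). AB2.2 alone passed at 0.43 ± 0.16 with all arrays (limma adjusted p = 0.040), and did not after leaving out any 1 of 8 of the 18 (0.34 to 0.51). The Hspa5 readings lay closer than those of Hsp90b1 to the lowest detected signals, 4.68 to 5.02 on arrays of days 0 to 6. Hspa5 and the undetected Canx each had 1 probe, and how well these probes report their transcripts was not tested.

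The ER J proteins and the degradation factor Herpud1 had smaller or later changes. Dnajc3 (P58IPK), a BiP partner, rose in AB2.2 by 0.56 ± 0.12 at day 6 (limma adjusted p = 0.0018). Dnajc10 (ERdj5), a J protein that reduces disulphides, read 9.61/9.65 at day 0 and 10.21/10.29 at day 6 in AB2.2, a rise of 0.62 ± 0.08 (limma adjusted p = 1.5e-05), while a second probe, detected on 4 arrays, gave -0.40 (limma adjusted p = 0.0237). Dnajb9 (ERdj4) read 8.10/8.19 and 8.24/8.17 in AB2.2 and 8.40/8.31 and 9.21/9.17 in PL2F8 at days 0 and 6. It was higher in PL2F8 by 0.84 ± 0.08 (limma adjusted p = 1.7e-06), or at -1.17 with median scaling, and it differed by 0.06 ± 0.08 in AB2.2 (limma adjusted p = 0.60). Herpud1, which builds the ubiquitin ligase complex of ER degradation, read 8.98/9.15 and 9.34/9.31 in AB2.2 and 9.36/9.32 and 10.35/10.37 in PL2F8, with a change at day 6 of 1.02 ± 0.09 in PL2F8 (limma adjusted p = 3.3e-07; -0.99 with median scaling). Dnajb11 (ERdj3) differed by -0.11 ± 0.07 (limma adjusted p = 0.15). Dnajb12, a membrane J protein of ER degradation, read 7.84/7.79 and 6.61/6.70 in PL2F8 at days 0 and 6, a fall of 1.17 ± 0.08 (limma adjusted p = 3.2e-08), and 7.77/7.72 and 7.85/7.70 in AB2.2. Dnajc1 (ERdj1) was not detected on the PL2F8 arrays of day 0 and read 5.83/5.64 at day 6, at least 2.02-fold higher (limma adjusted p = 5.1e-06).

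Of the disulphide isomerases and the lectin that hands glycoproteins to them, Pdia5 and Pdia3 rose furthest at day 6 in AB2.2. Pdia5 read 8.10/8.09, 8.28/8.18, 8.67/8.42, 9.07/8.98 and 9.37 in AB2.2 over days 0 to 8, and 8.32/8.25, 8.36/8.18, 8.98/8.85 and 9.69/9.77 in PL2F8 over days 0 to 6. Days 0 and 2 overlapped in PL2F8 and each later day lay higher, by 0.54 ± 0.07 at day 4 (limma adjusted p = 1.9e-05) and by 0.93 ± 0.10 at day 6 in AB2.2 (limma adjusted p = 4.0e-06). Pdia3 (ERp57), the isomerase that works with calnexin and calreticulin, read 11.19/11.14, 11.56/11.50, 11.60/11.58, 11.87/11.84 and 12.04 in AB2.2. It stood there at 0.69 ± 0.07 at day 6 (limma adjusted p = 4.3e-06) and 0.88 ± 0.09 at day 8 (limma adjusted p = 4.3e-06), and PL2F8 differed by 0.15 ± 0.07 at day 6 (limma adjusted p = 0.081). Pdia4 (ERp72) stood at day 2 0.42 ± 0.06 over day 0 (limma adjusted p = 9.3e-05) with arrays at 9.71/9.64 beside 9.28/9.25 in AB2.2 and 9.75/9.83 beside 9.26/9.44 in PL2F8, and differed by 0.01 ± 0.06 at day 6 (limma adjusted p = 0.92). Pdia6 (P5) likewise changed by 0.31 ± 0.07 at day 2 (limma adjusted p = 0.0023) and was not called at day 6 in both lines together (-0.11 ± 0.07, limma adjusted p = 0.15), where it was lower in PL2F8 (-0.46 ± 0.10, limma adjusted p = 0.00092) and not called in AB2.2 (0.23 ± 0.10, limma adjusted p = 0.061). Calr read 8.91/8.95 and 8.69/8.80 in AB2.2 and 8.91/8.77 and 9.45/9.25 in PL2F8 at days 0 and 6. It was not called in AB2.2 (-0.19 ± 0.09, limma adjusted p = 0.097) and was higher in PL2F8 (0.51 ± 0.09, limma adjusted p = 0.00027), or at -1.51 with median scaling.

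**Figure D4:**
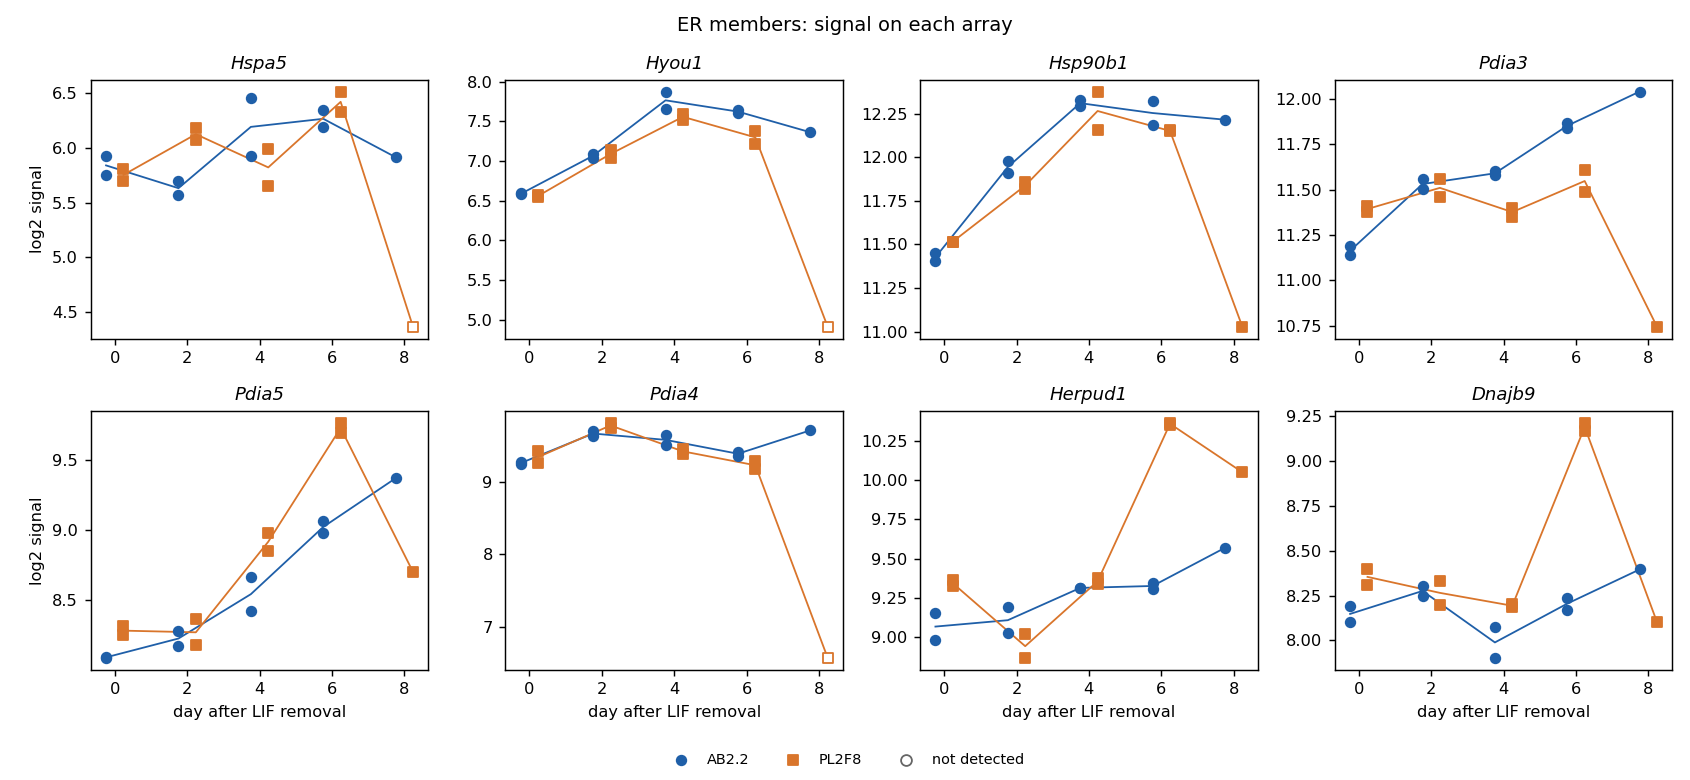
Log2 normalized signal (vertical axis) of 8 ER chaperones and folding factors on each array by day, for AB2.2 and PL2F8; open symbols were not detected above background. Hyou1 and Hsp90b1 lie above day 0 on every array of days 2 to 6 in both lines, and Pdia5 at days 4 and 6, although median scaling turns the PL2F8 changes of all 3 at day 6.

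The other genes of the folding pathways were read from lists, beside which 22.3% of all genes were higher and 22.8% lower at day 2, 32.1% and 27.9% at day 4, and 34.2% and 33.7% at day 6. Of 30 genes of the unfolded protein response and ER folding 25 were tested, and 9 were higher and 2 lower at day 2, 10 and 6 at day 4, and 11 and 5 at day 6 in both lines, the last being 5 and 14 with median scaling. In AB2.2 at day 6 12 were higher and 5 lower, or 16 and 3 with median scaling, against 28.2% and 26.3% of all genes. The transcription factor Ddit3 (CHOP) rose by 2.82 at day 6 as the mean of the lines, but by 0.63 in AB2.2 alone. Most of that mean thus came from the dim PL2F8 arrays. The isomerase P4hb rose by 1.27 over both lines and by 1.41 in AB2.2, while Sdf2l1, a partner of the ER J proteins, fell by 1.03 and 1.33. Of 26 genes of HSF1 and the cytosolic co-chaperones 25 were tested, and 1 was higher and 5 lower at day 2, 7 and 11 at day 4, and 6 and 13 at day 6, the last being 1 and 24 with median scaling. Of these, the 5 lower at day 2 and the 7 higher at day 4 lay near the shares of all genes. The HSP90 activator Ahsa1 fell by 0.97 at day 6 in both lines and by 0.86 in AB2.2, and Stip1 (HOP), which joins HSP70 to HSP90, by 0.56 and 0.36. Of 10 further mitochondrial folding and protease genes 1 was higher and 4 lower at day 6, or 0 and 10 with median scaling, with the protease subunit Clpp down by 0.61 in both lines and 0.55 in AB2.2. The changes quoted from these lists had limma adjusted p between 4.0e-11 and 0.0033 and kept their direction with median scaling.

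Before withdrawal the lines differed in a share of the chaperones near that of all genes. At day 0, 11 of 72 members were higher in PL2F8 and 8 lower, against 14% and 12.8% of all genes. Hsp90aa1 was lower in PL2F8 by -0.61 ± 0.09 (limma adjusted p = 0.00031), with the day 0 arrays given above. Dnajc6 was higher by 0.70 ± 0.10 (limma adjusted p = 0.00035) and Dnajc12 by 0.68 ± 0.10 (limma adjusted p = 0.00043), with arrays of 6.45/6.42 in AB2.2 and 7.09/7.15 in PL2F8. Hspb6 (-0.48 ± 0.09) and Dnajc30 (-0.43 ± 0.07) were lower in PL2F8, with limma adjusted p of 0.0027 and 0.0010. Hspb2 (-0.68 ± 0.19), Dnajb13 (0.62 ± 0.19) and Dnajc5g (0.59 ± 0.14) passed with all arrays. Leaving out 1 day 0 array ended the call for Hspb2 without AB2.2 replicate 1 or 2 or PL2F8 replicate 2 (-0.70 to -0.41), for Dnajb13 without any 1 of the 4 (0.56 to 0.69), and for Dnajc5g without AB2.2 replicate 1 or PL2F8 replicate 2 (0.43 to 0.53).

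The change from day 0 to day 4 differed between lines in 5 members that were higher and 7 that were lower in PL2F8, against 14.6% and 14.8% of all genes, or 1 and 37 with median scaling. Hspa2 stood apart by 0.77 ± 0.13 (limma adjusted p = 0.0011), with the low AB2.2 and recovered PL2F8 arrays given above. Dnajb1 was the lowest, -0.65 ± 0.12 (limma adjusted p = 0.0016), with 10.02/10.17 and 10.30/10.35 in AB2.2 and 10.24/10.28 and 9.78/9.91 in PL2F8 at days 0 and 4. AB2.2 was thus higher and PL2F8 lower at day 4 with no overlap. Hspa9 differed by 0.44 ± 0.11 (limma adjusted p = 0.0084), with arrays at 12.63/12.57 in AB2.2 and 13.05/12.99 in PL2F8 on day 4 beside 13.13/13.15 and 13.11/13.13 on day 0. In the same contrast all 10 visceral endoderm markers were lower in PL2F8, and their part was not tested.

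At day 6 the difference in change was called for 19 members higher and 23 lower in PL2F8, against 25.8% and 29.4% of all genes, and with median scaling, where the median of all genes moved by -1.37, for 1 and 61. Hspa2 had the largest difference, 1.48 ± 0.13 (limma adjusted p = 1.7e-06), or -0.81 with median scaling. It was followed by Cct6b at 1.19 ± 0.16 (limma adjusted p = 5.1e-05), Hspa1a at 1.09 ± 0.20 (limma adjusted p = 0.00053) and Hspb1 at 1.06 ± 0.22 (limma adjusted p = 0.0012), which with median scaling stood at -0.21, -0.69 and -1.16. At the other end Dnajc12 differed by -1.23 ± 0.14 (limma adjusted p = 1.5e-05) and Dnajb12 by -1.20 ± 0.11 (limma adjusted p = 1.5e-06). Dnajc12 arrays of day 6 stood at 5.83/6.08 in AB2.2 and 5.46/5.34 in PL2F8. Dnajc28 differed by -0.95 ± 0.20 (limma adjusted p = 0.0014) and Dnajc16, an ER membrane J protein, by -0.91 ± 0.12 (limma adjusted p = 5.2e-05). For Dnajc28 the PL2F8 arrays of day 6 read 5.06/4.72, the latter not above background, so its difference is limited by the background. Hyou1 differed by -0.30 ± 0.13 (limma adjusted p = 0.062) and Hsp90b1 by -0.19 ± 0.12 (limma adjusted p = 0.19), with no call in either. The lack of a call does not show that the lines are alike, as small differences were seldom recovered in simulated data. The PL2F8 arrays of day 6 were dimmer than all others of days 0 to 6 and their replicates differed more (SD of the difference 0.335, against 0.153 to 0.191), which bears on each value of this paragraph.

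**Figure D5:**
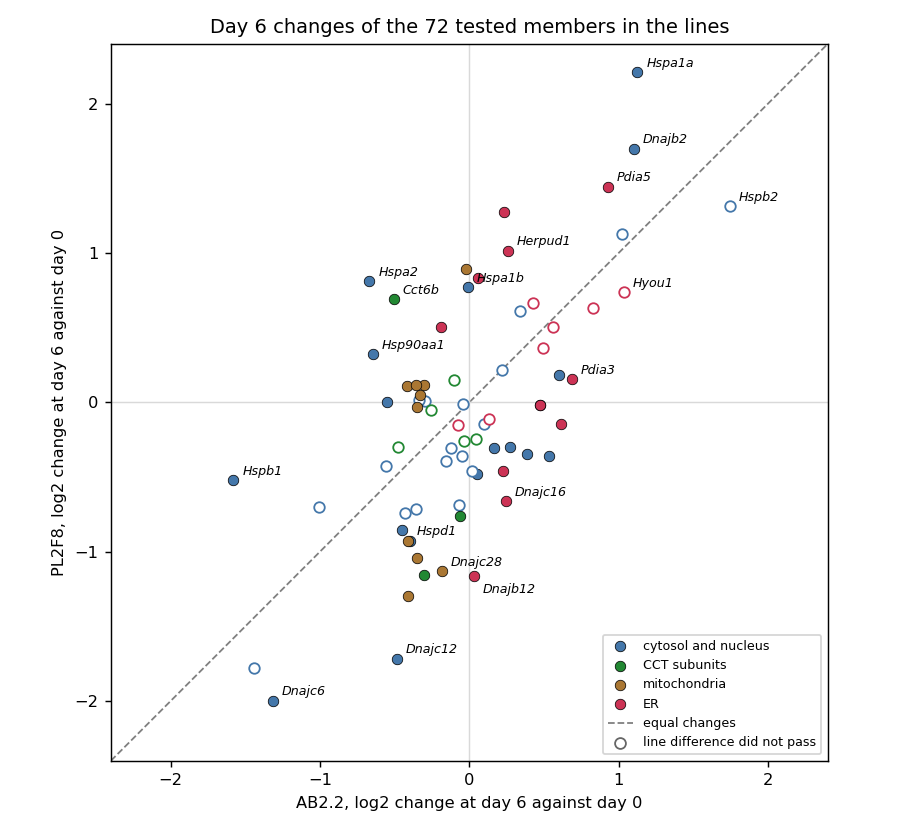
Log2 change from day 0 to day 6 of each tested chaperone in AB2.2 (horizontal axis) against PL2F8 (vertical axis), coloured by compartment; filled points passed the test of the difference between lines and open points did not. Hspa2, Cct6b, Hspa1a and Hspb1 lie on the side of a higher change in PL2F8, and median scaling turns the sign of all 4 differences.

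At day 8 the single AB2.2 array kept the direction of day 6 for Pdia5, Hspb2, Dnajc5 and Hspb1, with a change larger than at day 6 for Pdia5 and smaller for the other 3. Pdia5 stood 1.28 ± 0.12 over day 0 (limma adjusted p = 2.1e-06), Hspb2 1.01 ± 0.23 (limma adjusted p = 0.0028), Dnajc5 0.89 ± 0.08 (limma adjusted p = 2.4e-06) and Hspb1 -1.18 ± 0.19 (limma adjusted p = 0.00020). The single PL2F8 array of day 8 had 17 members called higher and 37 lower, against 31.4% and 41.1% of all genes, with 20.9% of probes detected. With 1 array a group, these tests take the spread from the other groups.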

How the data were processed

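Total RNA of 18 samples was hybridized to Illumina mouse bead arrays, labelled with biotin, per the labels' protocols. The deposited probe table holds, per the file headers, the average bead signal (intensity) and a detection p-value of 45281 probes on each array; 445 lines had shifted fields and were left out. The authors' deposited matrix holds a normalized intensity per gene name and no probe numbers, and how it was made is not given in the sources used here. Probes were named by matching their quantile-normalized signal to that matrix (tolerance 0.02), which reached 30493 of its 30848 rows, 21623 through 1 probe and 8870 through a mean of up to 14 probes, with 98 ambiguous. Signals were background-corrected by the normal-exponential model from detection p-values (limma 3.58.1, R 4.3.3, offset 16) and quantile normalized on the log2 scale. Probes with a detection p below 0.05 on at least 2 arrays were kept (23879), each gene was read from its brightest kept probe (4764 genes had several), and 16982 genes were fitted with a mean per line and day (8 residual and 4.14 prior degrees of freedom), with Benjamini and Hochberg adjustment over all genes. The number of arrays limits the precision. A side with no detected array is given as a bound against the lowest detected signal. The procedure was tested on simulated data. There the test of the difference in change between lines recovered 76% of changes of 1 log2 at day 4 and 74% at day 6. Of smaller changes it recovered 21% and 9%, and 6.74% of its calls at day 6 were false. The members, the gene lists and the tests were chosen with earlier results of these data known. Members always named were Hspa8, Hspa1a, Hspa1b, Hspa4, Hsph1, the Hsp90 genes, Dnajb1, Hspb1, Bag3, the CCT subunits, the main mitochondrial and ER chaperones, and the 4 highest and 4 lowest called members of each comparison; others are single values chosen after they were seen. Lists also covered markers of feeder fibroblasts (6 of 10 tested; Col1a2, Col3a1, Lum and Postn failed the detection filter; 2 higher and 2 lower at day 6; summed signal 362.58 to 1191.7) and trophectoderm (5 of 6 tested, 4 higher and 0 lower at day 6; 497.36 to 2172.6). Alternatives were no background correction, median scaling, stricter detection, the deposited matrix, array weights, an additive model, a replicate block and leaving out arrays. PL2F8 arrays of day 6 and day 8 were dim, and standard errors that involve them may be too small.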

Additional observations from a re-analysis of the deposited data

Results flagged for a closer look

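The change from day 0 differed between the lines, by the test of the difference itself, in 16 values named by the rule for named members. Positive values are higher in PL2F8. At day 4 these were Hspa2 (0.77, limma adjusted p = 0.0011), Cct6b (0.55, 0.024), Hsp90aa1 (0.47, 0.014), Hspa9 (0.44, 0.0084), Dnajc30 (-0.51, 0.003), Dnajc10 (-0.58, 0.0014), Dnajc16 (-0.61, 0.0028) and Dnajb1 (-0.65, 0.0016). The call for Cct6b was lost without any 1 of 7 arrays (0.46 to 0.57) and that for Hsp90aa1 without any 1 of 3 (0.38 to 0.40), and Hsp90aa1 turned to -0.062 with median scaling. At day 6 they were Hspa2 (1.48, limma adjusted p = 1.7e-06), Cct6b (1.19, 5.1e-05), Hspa1a (1.09, 0.00053), Hspb1 (1.06, 0.0012), Dnajc16 (-0.91, 5.2e-05), Dnajc28 (-0.95, 0.0014), Dnajb12 (-1.2, 1.5e-06) and Dnajc12 (-1.23, 1.5e-05). The 4 positive values at day 6 turned with median scaling, as given with the processing, and the PL2F8 arrays of day 6 were dim.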

How the results depend on the processing

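Of 150 called single changes of named members, 121 kept their call whichever array was left out and 29 lost it without at least 1, none with a turned sign. Median scaling in place of quantile normalization gave 8 higher at day 2, 12 higher at day 4, 8 higher and 50 lower at day 6, 12 lower in AB2.2 at day 6, 2 and 61 in PL2F8 at day 6, 4 lower between the lines at day 0, and 1 and 37 (day 4) and 1 and 61 (day 6) for the difference in change between lines. It turned, at day 4, Bag3 (-0.21), Cct4 (-0.10), Cct8 (-0.25) and Pdia3 (-0.11); at day 6 in both lines, Bag3 (-0.91), Cct4 (-0.80), Cct6b (-0.43), Hsp90b1 (-0.15), Calr (-0.70), Pdia3 (-0.53), Pdia4 (-0.85), Dnajb9 (-0.39), Dnajc3 (-0.055) and Herpud1 (-0.21); in PL2F8 at day 6, Hspa1b (-0.026), Hsp90aa1 (-1.68), Cct4 (-1.59), Cct6b (-0.53), Hspe1 (-1.91), Hspa9 (-1.39), Dnaja3 (-1.91), Hspa5 (-0.59), Hsp90b1 (-1.20), Hyou1 (-0.89), Calr (-1.51), Pdia3 (-1.81), Dnajb9 (-1.17), Dnajc3 (-1.07), Herpud1 (-0.99), Dnajb2 (-0.079), Pdia5 (-0.56) and Hspb2 (-0.01); and between lines, at day 4, Hsp90aa1 (-0.062), and at day 6, Hspa2 (-0.81), Cct6b (-0.21), Hspa1a (-0.69) and Hspb1 (-1.16). This list is not complete. Other changes turned too, among them Dnajc5 (-0.87) and Hspa2 (-1.20) in PL2F8 at day 6. Between lines at day 6 they included Hsp90aa1 (-1.16), Herpud1 (-1.57), Calr (-1.62) and Pdia5 (-1.86). The cause was not tested.

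Without the dim PL2F8 arrays, day 6 rests on AB2.2 alone by construction, and Hspa1b (-0.008), Dnajb1 (0.27), Cct6b (-0.51), Calr (-0.19) and Pdia6 (0.23) turned. The deposited matrix turned Hspa8 at day 4 (-0.13). The deposited matrix, no background correction and array weights each gave 8 members higher for the day 4 difference between lines. A model adding line and day gave 1 higher and 6 lower at day 2, 7 and 10 at day 4 and 12 higher at day 6. Leaving out 1 array gave ranges of 9 to 16 higher and 18 to 22 lower at day 2, 15 to 20 and 20 to 25 at day 4, 19 to 23 and 22 to 28 at day 6, 16 to 21 and 20 to 26 in AB2.2 at day 6, 19 to 22 and 24 to 30 in PL2F8 at day 6, 14 to 15 and 17 to 23 in AB2.2 at day 8, 5 to 12 and 3 to 8 between lines at day 0, and 2 to 7 and 6 to 7 (day 4) and 18 to 20 and 22 to 25 (day 6) for the difference in change. Single arrays that moved a count over 1.5 times were AB2.2 day 2 replicate 1 (9 higher at day 2), the day 0 arrays between lines (higher 5 without AB2.2 replicate 1 and 6 without either PL2F8 replicate; lower 3 without AB2.2 replicate 2, 5 and 4 without PL2F8 replicates 1 and 2), and, for members higher in the day 4 difference, AB2.2 day 0 replicate 2 (3), AB2.2 day 4 replicates 1 and 2 (2 and 3) and PL2F8 day 4 replicates 1 and 2 (3 and 3).

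The replicate numbers did not pair the arrays: over 28 pairs of groups the correlation of same-numbered deviations lay between -0.027 and 0.044. A replicate block gave 16 and 21, 20 and 22, and 22 and 26 members higher and lower at days 2, 4 and 6, 20 and 26 in AB2.2 and 20 and 30 in PL2F8 at day 6, and changed no other count by over 1.5 times. Members near background on a side, such as Hspa1a, Dnajc1, Dnajc28 and Hspb3, have changes limited by signal over background.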
